A study of Mus musculus with 4 samples.

Results

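TRBV29 is the gene segment of the T cell receptor beta chain known as Vβ7, and the results concern the CD4 T cells whose single beta chain used it. The cells came from the spleens of 2 NOD.Rag1null hosts, mice that make neither T cells nor B cells. Both hosts had received CD4 T cells purified on magnetic columns from spleens of B6.H2g7 donors (strain B6.NOD-(D17Mit21-D17Mit10)/LtJ, 6-8 weeks old), and live cells stained for CD4 and the beta chain of the receptor were sorted on day 14. Each host, called mouse 1 and mouse 2, gave one 5′ gene expression library and one receptor library, and neither host was an untreated control. Cells entered the comparison with exactly 1 beta chain and no more than 2 alpha chains, a minimum of 500 genes, and mitochondrial transcripts making up 10% of UMIs (counted molecules) or less. This left 5993 cells in mouse 1 and 6332 in mouse 2. TRBV29 was used by 75 and 382 of them, 457 of 12325 in all. They were compared with the 2875 and 3265 kept cells that used none of TRBV29, TRBV26 and TRBV23, called the other cells.

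A CD4 T cell recognises peptide on MHC class II through one beta and one alpha chain. Each chain is assembled from V, D and J segments, or V and J for alpha, and the bases added or removed at the joins make the CDR3 an almost unique mark of a cell and its descendants. Cells with the same beta V gene, J gene and CDR3 bases are called a clonotype here. In a host without T and B cells of its own, transferred T cells divide. Members of one clonotype share a beta chain and are taken to share an ancestry, so they are not treated as independent samples of a V gene. The alpha chain is not part of this definition.

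The Trbv29 gene (ENSMUSG00000076480) lies on chromosome 6 of GRCm38, from 41271394 to 41271881 on the plus strand, with 2 exons. Its own transcript was checked against the receptor calls. At least 1 Trbv29 UMI was found in 74 of 75 TRBV29 cells of mouse 1 and in 380 of 382 of mouse 2, against 0.870% and 1.35% of other cells. Median depth was 5397 and 5268 UMIs in TRBV29 cells and 5738 and 6360 in other cells.

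The cells of the largest TRBV29 clonotype carried one receptor in each mouse, and those receptors are printed because they stand for most of the TRBV29 cells. Bases in capitals matched neither the germline V nor the germline J segment of the GENCODE M21 transcripts.
Mouse 1 largest clonotype, beta chain with TRBJ2-1: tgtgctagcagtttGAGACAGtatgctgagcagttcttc
Mouse 1 largest clonotype, alpha chain TRAV6-7-DV9 with TRAJ48: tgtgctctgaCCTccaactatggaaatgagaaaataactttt
Mouse 2 largest clonotype, beta chain with TRBJ2-3: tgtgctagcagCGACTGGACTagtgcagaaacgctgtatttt
Mouse 2 largest clonotype, alpha chain TRAV6N-7 with TRAJ27: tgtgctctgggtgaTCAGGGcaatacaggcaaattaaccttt
Mouse 1 second clonotype, beta chain with TRBJ2-3: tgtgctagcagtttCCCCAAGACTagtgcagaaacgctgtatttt
Mouse 2 second clonotype, beta chain with TRBJ1-5: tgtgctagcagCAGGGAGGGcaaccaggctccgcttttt

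The capitals cover 7 bases of the beta chain of the largest clonotype of mouse 1 and 10 bases of that of mouse 2. The alpha chain shown was found in 48 of the 50 cells of the first and in 363 of the 366 cells of the second. The V genes of the alpha chains, TRAV6-7-DV9 and TRAV6N-7, are near-identical copies within one subfamily. Genes of that subfamily were used by 2 of 17 and 2 of 13 TRBV29 clonotypes with an alpha chain, against 7.06% and 4.69% of other clonotypes. The exact 95% intervals for TRBV29, 1.46% to 36.4% and 1.92% to 45.4%, include the shares of the other clonotypes. No TRBV29 clonotype, and no translation of a TRBV29 CDR3, occurred in both mice. Over all V genes 63 clonotypes did, 1.99% of those of mouse 1 and 1.90% of those of mouse 2, and with 19 and 14 TRBV29 clonotypes the absence of a shared one is not read as a difference.

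TRBV29 was used by few clonotypes, and 1 clonotype in each mouse held most of its cells. It was used by 19 of 3166 clonotypes in mouse 1 (0.600%) and 14 of 3316 in mouse 2 (0.422%), but by 1.25% of kept cells in mouse 1 (exact 95% interval 0.986% to 1.57%) and 6.03% in mouse 2 (5.46% to 6.65%). The largest clonotype held 50 cells in mouse 1, which is 66.7% of the TRBV29 cells there (54.8% to 77.1%). In mouse 2 it held 366 cells, or 95.8% (93.3% to 97.6%) of TRBV29 cells and 5.78% of all kept cells. Among TRBV29 and other clonotypes together these ranked 7th by size in mouse 1 and 1st in mouse 2. The intervals cover counting error only.

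Outside those clonotypes, TRBV29 cells were few and in small clonotypes. They numbered 25 cells in 18 clonotypes in mouse 1 and 16 cells in 13 clonotypes in mouse 2, and no such clonotype had more than 3 cells. Cells per TRBV29 clonotype were 3.95 and 27.3 with the largest clonotype and 1.39 and 1.23 without it. Other cells gave 2.70 and 2.38 per clonotype, and 2.49 and 2.27 without their own largest. Among V genes with at least 50 cells, TRBV29 had the highest share of cells in its largest clonotype in both mice, first of 18 and first of 19. That rank depends on the limit: below it, TRBV17 in mouse 1 had 86.1% of 36 cells in its largest clonotype and TRBV30 in mouse 2 had 100% of 7 cells. By number of cells it stood 15th of 21 V genes in mouse 1 and 5th of 22 in mouse 2.

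**Figure D1:**
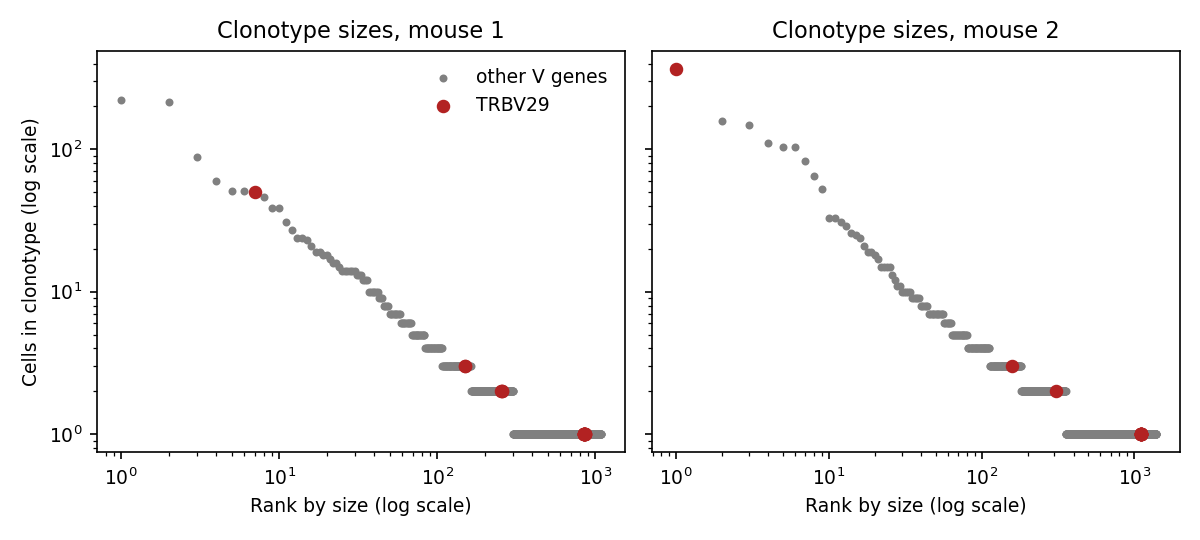
Cells per clonotype (y, log scale) against the rank of the clonotype by size (x, log scale) in each mouse, TRBV29 in red and other V genes in grey. One TRBV29 clonotype has 50 cells in mouse 1, among the larger grey ones, and one has 366 in mouse 2, above all others drawn; every other TRBV29 clonotype has 1 to 3 cells.

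Expression was compared on UMI counts summed per mouse and class, with the mouse as a block (edgeR's quasi-likelihood test, Benjamini-Hochberg adjusted p under 0.05). Receptor segment genes were left out. The TRBV29 sums held 497832 and 2162007 UMIs and the other sums 19322584 and 24234679. With all TRBV29 cells, 667 of 12038 genes were called (5.54%), 291 higher (2.42%) and 376 lower (3.12%) in TRBV29 cells, and 617 had the same sign in both mice. That design leaves 1 residual degree of freedom, and edgeR estimated the prior degrees of freedom as infinite, so a gene's own spread between the mice had no weight in these p-values. Without the block the prior was 5.43 and 152 genes were called, with V genes as separate classes it was 7.89 and 488 were called, and DESeq2 called 146. The labels do not say whether each host received cells of its own donor.

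Effector genes were higher in TRBV29 cells. Of 16 measured genes of a Th1 list, 9 rose and 1 fell (median log2 fold change 0.60, against -0.03 over all genes tested). Ccl5, a chemokine of effector T cells, was at 31302 CPM (UMIs of the gene per 1000000 UMIs of the sum) in mouse 1 and 33710 in mouse 2, against 13608 and 12653 in other cells (log2 fold change 1.33, SE 0.08, adjusted p = 1.65e-60 in edgeR). Both TRBV29 values lay above both values of other cells. Ccl4, a related chemokine, and Ifng, the cytokine that defines Th1 cells, were higher by 1.39 and 1.22 on the log2 scale.

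Genes of cytotoxic granules and inhibitory receptors moved in the same comparison. Nkg7, a granule membrane protein, was at 4714 and 7036 CPM against 2329 and 2102 (log2 fold change 1.40, SE 0.10). Of 11 cytotoxic genes 5 rose, among them Prf1, which encodes perforin, and 2 fell, Gzma and Lamp1. Of 13 inhibitory receptor and exhaustion genes 8 rose and 3 fell (median 0.74). Pdcd1, which encodes PD-1, was at 480 and 880 CPM against 306 and 301, and Lag3, another inhibitory receptor, at 976 and 900 against 408 and 358. The fallers were Btla, Ctla4 and Nt5e.

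Receptors shared with natural killer cells were also higher, 5 of 11 with 1 lower. Klra3, a Ly49 receptor, was at 76.3 and 146 CPM in TRBV29 cells and at 4.50 and 10.6 in other cells (log2 fold change 3.92, SE 0.22). Cx3cr1, a chemokine receptor of effector cells, was higher by 1.78. Klrg1, an inhibitory lectin-like receptor, went the other way, with 6.03 and 2.31 CPM against 47.6 and 55.3 (log2 fold change -4.08).

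Genes of naive and of regulatory T cells were lower. Of 14 naive genes 8 fell and 1, Klf2, rose (median -1.09), and of 18 regulatory T cell genes 13 fell and none rose (median -1.11). Foxp3, which defines regulatory T cells, was at 62.3 and 10.6 CPM in TRBV29 cells and at 138 and 157 in other cells (log2 fold change -2.58, SE 0.21). Tcf7, a transcription factor of naive and memory cells, was at 117 and 60.6 CPM against 257 and 299. Il7r, the IL-7 receptor, and Ccr2, a chemokine receptor, had log2 fold changes of -2.50 and -3.48. With cells that held a Foxp3 UMI left out of both classes, 176 genes were called. The prior there was 8.87 degrees of freedom and not infinite, so the counts also differ by the prior. The part of Foxp3 cells in the lower count was not tested.

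Proliferation and glycolysis genes gave few or mixed calls. Of 22 proliferation genes 2 rose and 4 fell, and Mki67 missed the threshold (adjusted p = 0.0615 in edgeR). None of 13 glycolysis genes was called. Of 16 interferon-induced genes 6 fell and none rose (median log2 fold change -0.69), where 3.12% of all genes tested were called lower. Of 8 Th17 genes 4 fell and of 6 Th2 genes 3 fell, and none of either list rose. Spp1, which encodes osteopontin, was called higher (2.49) but the mice differed: it was at 20.1 CPM in TRBV29 cells of mouse 1, below the 57.4 of other cells, and at 827 in mouse 2, above 43.3. Xcl1, a chemokine, had no UMI in TRBV29 cells of mouse 1 and 105 CPM in mouse 2, against 83.4 and 48.9 in other cells, and was not called.

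Markers of other cell types were read in the same sums. Of 4 NK cell markers tested 3 were called higher, Eomes, which effector T cells also express, and Fcer1g and Tyrobp, which encode signalling adaptors (median 1.47). The NK list summed to 235 and 217 CPM against 142 and 101. Of its 6 genes, 3 had no UMI in TRBV29 cells of mouse 1 and 1 had none in mouse 2. Ncr1, which defines NK cells, had no UMI in TRBV29 cells of either mouse, and in mouse 2 it was the only one. Of 2 CD8 T cell markers, Cd8a had no UMI in any class. Cd8b1 was at 42.2 CPM in TRBV29 cells of mouse 1 and 0.46 in mouse 2, against 7.87 and 9.37, and was not called; its 45.4 CPM in the largest clonotype of mouse 1 was above all 15 other large clonotypes. Of 7 B cell markers tested H2-Aa and H2-Ab1, MHC class II genes, were called higher and Cd74 and Ighm lower, and the list summed to 239 and 308 CPM against 479 and 501. H2-Aa was at 10.0 and 59.7 CPM against 7.35 and 16.2. Of 3 erythroid markers Hbb-bs, a globin gene, was called higher, at 6.03 and 25.9 CPM against 4.40 and 4.91. Summed myeloid markers were at 64.3 and 128 CPM in TRBV29 cells against 39.4 and 33.7, and C1qa, C1qb and C1qc were called higher. Those 3 had 28.2 to 35.6 CPM in TRBV29 cells of mouse 2, at most 4.02 in mouse 1, and no UMI in the cells outside the largest clonotypes. The part of other cell types in the results was not tested beyond 1 setting: with cells that held 2 or more B cell or myeloid marker UMIs left out, 423 genes were called.

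**Figure D2:**
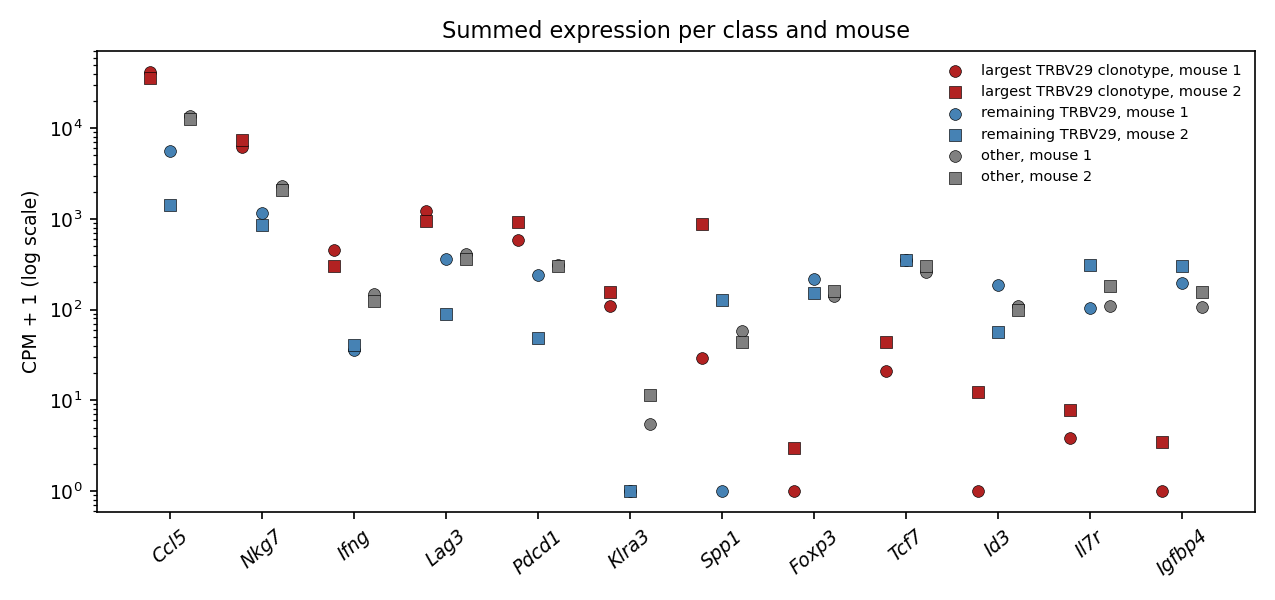
CPM plus 1 (log scale) of 12 genes in the largest TRBV29 clonotype (red), the remaining TRBV29 cells (blue) and the other cells (grey), circles for mouse 1 and squares for mouse 2. For Ccl5 and Nkg7 the red points lie above the grey and the blue points below, and for Foxp3 and Tcf7 the red points are lowest.

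The comparison was repeated without the largest TRBV29 clonotype of each mouse, on 145175 and 125499 UMIs. Then 44 of 11702 genes were called (0.376%), 15 higher (0.128%) and 29 lower (0.248%), again with an infinite prior. Of the genes called, 29 were called in both comparisons, 4.35% of the first set and 65.9% of the second, and 7 of these had the same direction. Of the 659 genes called with all TRBV29 cells and tested again, 392 had the other sign. The depth of the second comparison is far smaller, so a call that was lost does not show that the level was equal.

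Several effector genes were lower in the remaining TRBV29 cells. Ccl5 was at 5580 CPM in the remaining TRBV29 cells of mouse 1 and 1402 in mouse 2, both below the other cells (log2 fold change -2.24, SE 0.23, adjusted p = 4.59e-19 in edgeR). Nkg7 was at 1157 and 853 CPM (-1.21), Ccl4 at 868 and 7.97 (-1.79) and Ifng at 34.4 and 39.8 (-1.93). Of the 16 Th1 genes 5 fell (Ccl3, Ccl4, Ccl5, Gzmk and Ifng) and none rose. Cxcr6, Ly6c2, Runx3 and Tbx21, which had been higher with all TRBV29 cells, were not called. Of the 11 cytotoxic genes 4 fell, and of the 13 inhibitory genes 5 fell, among them Pdcd1 (-1.15) and Lag3 (-0.90). Klra3 had no UMI in the remaining cells of either mouse, where the level in other cells was itself below the 11.1 CPM that 3 UMIs would give. Xcl1 had none either, and was at least 5.79-fold lower than in other cells when 3 UMIs over both mice are taken as the limit.

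Most naive and regulatory genes were not called without the largest clonotypes. Foxp3 was at 214 and 151 CPM (log2 fold change 0.26, adjusted p = 0.978 in edgeR) and Tcf7 at 351 and 351 (0.29, adjusted p = 0.978). Of the 14 naive genes 1 rose, Ccr7, the receptor for entry into lymph nodes, and none fell. Of the 18 regulatory genes Itgae, an integrin, rose and Tnfrsf4, which encodes OX40, fell.

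Among the genes with the same direction in both comparisons were Gm20400, an uncharacterised transcript, Hs6st3, a heparan sulfate sulfotransferase, Nr4a1 and Nfkbia, which respond to receptor and NF-kB signalling, Tnfrsf4 and Rln3. Gm20400 was at 234 and 71.7 CPM in the remaining cells against 49.5 and 47.4. Hs6st3 was at 344 CPM in the remaining cells of mouse 1 and at 23.9 in mouse 2, close to the 21.4 and 22.4 of other cells, so its call rested on mouse 1. The largest clonotype had 5.67 CPM of Hs6st3 in mouse 1, below other cells, and 81.5 in mouse 2, above them. In mouse 1 both calls of Hs6st3 therefore drew on the same remaining cells. Nr4a1 was at 6.89 CPM in mouse 1 and had no UMI in mouse 2, against 60.7 and 50.4. All TRBV29 cells were also compared with other cells in large clonotypes, as described below. There Gm20400 (log2 fold change 2.15) and Hs6st3 (1.05) were called higher. Nr4a1 (-1.26), Nfkbia (-0.25) and Tnfrsf4 (-0.33) were not called, and Rln3 was not tested. With the largest TRBV29 clonotypes alone, none of these genes was called. The median single large clonotype of other V genes had 26.0 and 11.2 CPM of Nr4a1 and no UMI of Rln3.

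**Figure D3:**
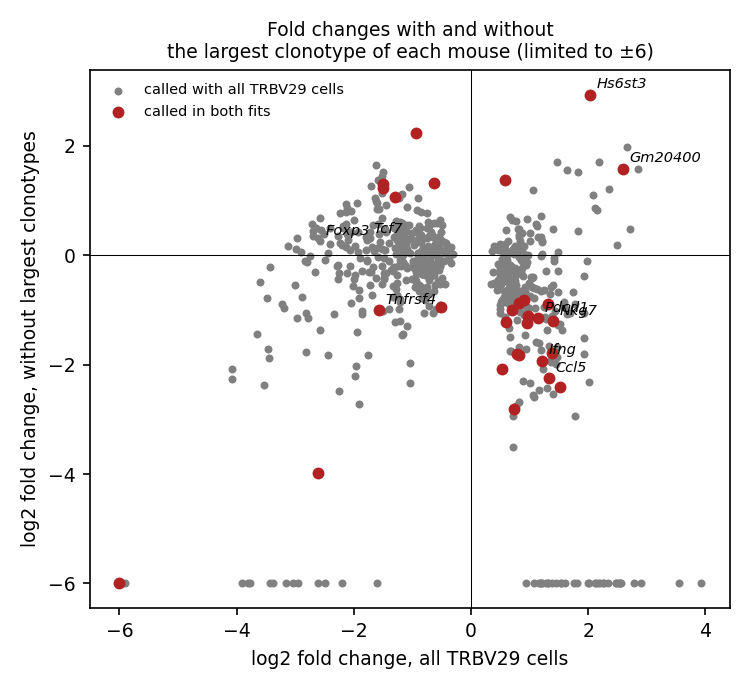
Log2 fold change of TRBV29 against other cells with all TRBV29 cells (x) and without the largest clonotype of each mouse (y), for genes called with all TRBV29 cells; red points were called in both. Values beyond 6 are drawn at 6, and Ccl5, Nkg7, Ifng and Pdcd1 lie at the lower right, where the sign differs, and Gm20400 and Hs6st3 at the upper right.

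Cells of the same clonotype size were then compared, by limits set after the data were seen. The remaining TRBV29 cells, all in clonotypes of 1 to 3 cells, were set against other cells in clonotypes of 1 to 3. There 19 genes were called, and the fitted log2 differences were 0.067 for Ccl5, 0.18 for Nkg7, 0.10 for Pdcd1 and 0.0042 for Lag3. The mice went opposite ways for 3 of these genes, so a value near 0 does not show equal levels. Ccl5 was at 5580 CPM in the remaining TRBV29 cells of mouse 1 against 2872 in other cells of that size, and at 1402 against 2515 in mouse 2. Pdcd1 was at 241 against 146 and at 47.8 against 111, and Lag3 at 358 against 245 and at 87.7 against 167. Nkg7 was at 1157 against 980 and at 853 against 748. Other cells in clonotypes of 20 or more had 26727 and 31699 CPM of Ccl5.

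Large clonotypes were compared in 2 ways, and both are given because the second was chosen after the first had been seen. All TRBV29 cells against other cells in clonotypes of 20 or more gave 83 of 10557 genes (0.786%), 43 higher (0.407%) and 40 lower (0.379%), with a prior of 12.9 degrees of freedom. That set included the small TRBV29 clonotypes on one side only, and Foxp3 was called higher there (1.93). Effector genes called higher in it were Nkg7 (log2 fold change 0.51, adjusted p = 0.00865 in edgeR), Ccl4 (0.43, 0.021), Lag3 (0.68, 0.00609) and Klra3 (2.68, 0.00123), as was Nr4a2, a gene induced by receptor signalling (0.72, 0.0155). Ccl5 (0.16) and Pdcd1 (0.35) were not called. The largest TRBV29 clonotypes alone against the same cells gave 2 of 10613 (0.0188%), 0 higher (0%) and 2 lower (0.0188%), with a prior of 5.77 degrees of freedom, and 630 genes had an unadjusted p under 0.05. Sostdc1, a secreted antagonist of BMP and Wnt signalling, was at 5.67 and 10.3 CPM against 83.1 and 159 (log2 fold change -3.92, SE 0.23, adjusted p = 0.0085 in edgeR). Ccr2 was at 2.84 and 3.44 CPM against 62.5 and 76.9 (-4.45, SE 0.30, adjusted p = 0.0104 in edgeR). The levels of other cells there are sums over all their large clonotypes. For Ccr2 the median single clonotype was at 9.75 CPM in mouse 1 and 16.4 in mouse 2, with maxima of 167 and 303. The TRBV29 clonotype lay below 14 of 15 and 14 of 16 of them. The effector genes were not called in this second comparison: the log2 fold change was 0.42 for Ccl5 (adjusted p = 0.467 in edgeR), 0.75 for Nkg7 (0.0744), 0.64 for Ccl4 (0.0955), 0.89 for Lag3 (0.173), 2.97 for Klra3 (0.173) and 0.52 for Pdcd1 (0.258).

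Single large clonotypes show where the TRBV29 ones fell. There were 15 other clonotypes of 20 or more cells in mouse 1 and 16 in mouse 2. Ccl5 was at 41891 CPM in the largest TRBV29 clonotype of mouse 1, exceeded by 1 of the 15, and at 35701 in that of mouse 2, exceeded by 6 of the 16. Nkg7 was exceeded by 3 and 2, Ccl4 by 5 and 3, Ifng by 2 and 6 and Prf1 by 1 and 6. Gzmk was exceeded by 3 and 8, Gzmb by 4 and 7, Eomes by 3 and 10 and Gzma by 9 and 4. In mouse 2 the TRBV29 clonotype lay below the median of the other clonotypes for Gzmk (622 against 728 CPM) and Eomes (173 against 208). Klra3, at 108 and 155 CPM, was exceeded by 0 and 1, where the other clonotypes had medians of 2.06 and 10.6. Other genes of the NK receptor list ranked lower in mouse 2. Klrd1 was exceeded by 0 and 7, Klre1 by 0 and 6, Klrk1 by 0 and 5, Cx3cr1 by 2 and 5 and Klrg1 by 7 and 11. Tcf7, at 19.8 and 42.7 CPM, lay below 14 of 15 and 14 of 16. These are descriptions of 1 clonotype per mouse.

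The 2 large TRBV29 clonotypes also differed from each other. That of mouse 2 had more Spp1 (870 CPM against 28.4), Xcl1 (112 against no UMI), Il21, a helper cytokine (86.9 against 5.67), and Gm20400 (497 against 108). That of mouse 1 had more Klrd1 and Klre1, both NK receptor genes (286 against 110 CPM and 198 against 13.3), and Mki67 (210 against 74.1). With 1 clonotype per mouse, the clonotype and the mouse cannot be told apart.

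**Figure D4:**
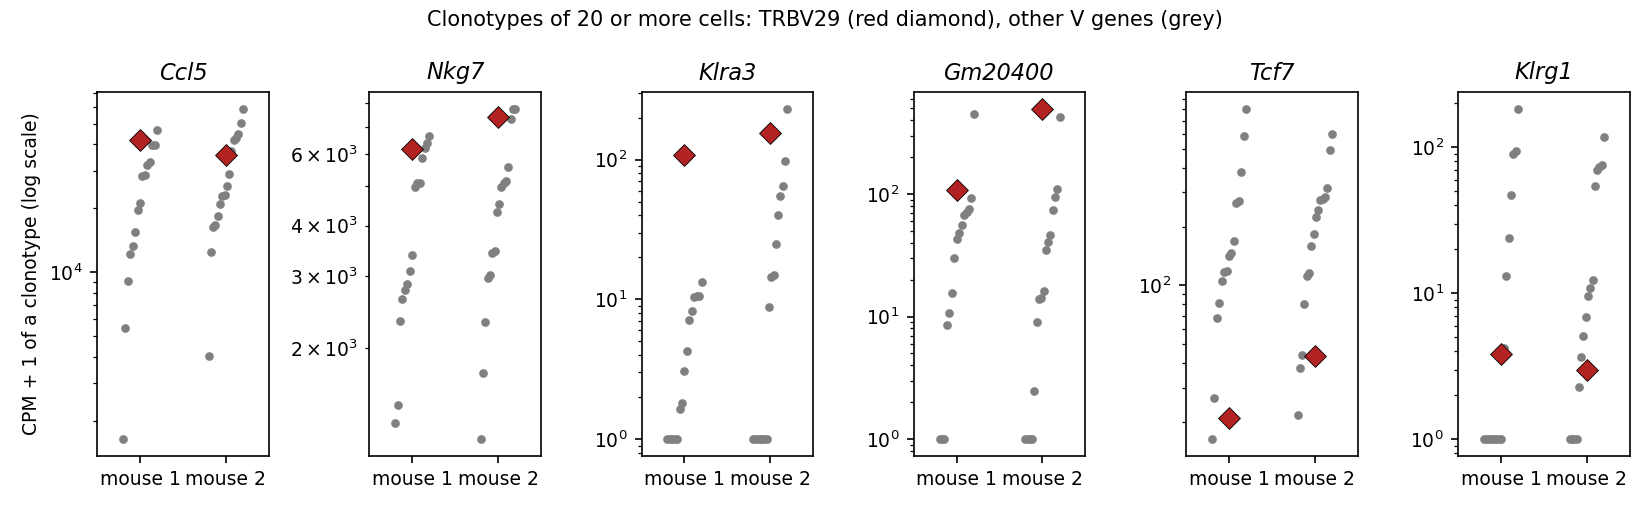
CPM plus 1 (log scale) of 6 genes in each clonotype of 20 or more cells, by mouse; the red diamond is the largest TRBV29 clonotype and grey points are clonotypes of other V genes, spread sideways for visibility. Klra3 is near the top of the range in both mice and Tcf7 near the bottom, while Ccl5 and Nkg7 lie among the upper grey points.

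Within the classes, the Ccl5 level of single cells followed the same split. At least 10000 CPM of Ccl5 was found in 86.0% of 50 and 85.0% of 366 cells of the largest clonotypes. It was found in 3 of 25 and 1 of 16 remaining TRBV29 cells, and in 30.7% and 28.5% of other cells. With 1 cell per clonotype in both classes, edgeR called 0 of 10508 genes, and 265 had an unadjusted p under 0.05.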

How the data were processed

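Counts are UMI counts per gene and cell as deposited by the authors, made with Cell Ranger 7.0.1 on mm10 (GRCm38), per the submitters' processing notes. Receptor contigs are the authors' deposited calls. The libraries held 70092822 and 75940181 UMIs in 9996 and 9733 barcodes. Barcodes with 2 beta chains (708 and 702) were left out of the main comparisons, and no doublet caller was run. Kept barcodes that occurred in both libraries numbered 58. Counts were summed per mouse and class and tested with edgeR 4.0.16 (TMM, filterByExpr, mouse as block) in R 4.3.3, after a test on simulated data; 256 receptor segment genes were left out. Figures and sums used Python 3.11.15. Mouse numbers pair the sums because both classes of a mouse come from 1 library.

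Named genes were the 6 largest changes per direction called in both comparisons, the 4 largest per direction whose call ended, the 2 smallest p-values per T cell list, and 15 genes fixed by name; Sostdc1, receptor genes beside Klra3 and other single list members were added after their values were seen. Members and the 28 lists were chosen with earlier results of these data known. Alternatives were DESeq2 1.42.0, RLE scaling, no low-count filter, no block, stricter cell filters (1000 genes, 5% mitochondrial UMIs), other comparison cells and 1 cell per clonotype. P-values rest on 2 mice.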

Additional observations from a re-analysis of the deposited data

Results flagged for a closer look

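Barcodes with 2 beta chains were outside the main comparisons. In mouse 1, 18 of the 708 held a TRBV29 chain (2.54%), where TRBV29 made up 1.25% of kept cells. The difference between these shares was not tested. Such barcodes entered only an alternative setting, by the beta chain with more UMIs. There 498 genes were called with all TRBV29 cells and 52 without the largest clonotypes. In 15 of the 18 both chains used TRBV29, and 14 of those held the CDR3 of the largest clonotype. In mouse 2, 1 of 702 such barcodes held a TRBV29 chain (0.142%) and none held the CDR3 of the largest clonotype, although TRBV29 made up 6.03% of kept cells there. Over all V genes, both chains used the same V gene in 73.4% and 70.5% of these barcodes, where drawing 2 chains by the V gene shares of kept cells would give 16.7% and 13.3%.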

How the results depend on the processing

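The number of genes called depended on the setting, and the cause was not tested. For all TRBV29 cells (667), it was 152 with no replicate block, 146 with DESeq2 (2801 adjusted p-values were NA), 0 with 1 cell per clonotype, 423 without cells holding B cell or myeloid UMIs, 176 without cells holding a Foxp3 UMI, 83 against clonotypes of 20 or more, 2 for the largest clonotypes against those, and 21 without the largest clonotype of all kept cells. It stayed within 1.5 times, between 488 and 793, in the other settings; with V genes as separate classes it was 297 higher and 191 lower, against 291 and 376. TRBV29 entered that fit with 75 cells in mouse 1, beside 10 other V genes. For the cells without the largest clonotypes (44), it was 17 with no replicate block, 3 with DESeq2, 4 with 1 cell per clonotype, 1 with V genes as classes and 19 against clonotypes of 1 to 3. Leaving out a mouse leaves no test for these counts.

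Leaving out each mouse gave 1.25% to 6.03% for the TRBV29 share of kept cells, 0.422% to 0.600% of clonotypes, 66.7% to 95.8% of TRBV29 cells and 0.834% to 5.78% of kept cells in the largest clonotype, and 3.95 to 27.3 cells per TRBV29 clonotype, 2.38 to 2.70 per other clonotype, 1.23 to 1.39 and 2.27 to 2.49 without the largest. The mean without the largest moved from 1.31 to 1.44 for TRBV29 with 2-chain barcodes kept, and for other clonotypes from 2.38 to 2.21 with the alpha chain in the definition and 2.54 with 2-chain barcodes kept.

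Log2 fold changes that turned, for all TRBV29 cells: with 1 cell per clonotype, Nccrp1 -7.09, Pdcd1 -0.23, Lag3 -0.30, Mcm6 -0.25, Ifi27l2a 0.064, Jun 0.085 and Ifng -0.14; Ctla4 0.14 without B cell or myeloid UMIs and 0.24 without Foxp3; against clonotypes of 20 or more, Foxp3 1.93, Il2ra 0.63, Ctla4 0.35 and Igfbp4 2.34; without the largest clonotype of all kept cells, Ccl5 -0.84, Ccl4 -1.11, Nkg7 -0.082, Pdcd1 -0.41, Spp1 -0.14, Il21 -3.10 and Xcl1 -12.75; with each mouse left out in turn, 3830403N18Rik -1.34 to 5.39, Tmem176a -4.01 to 0.16, Spp1 -1.47 to 4.22, Hist1h1b -1.28 to 0.16 and Jun -1.37 to 0.11, the 5 called values whose sign differed between the mice. These 5 are counted among the named genes only. Of all 667 genes called with all TRBV29 cells, 617 had the same sign in both mice. Without the largest clonotypes, 39 of the 44 called did. Among the named genes, the sign differed too for 19 values that were not called. They include Il21 -2.50 to 0.97 and Xcl1 -6.40 to 1.09, and, without the largest clonotypes, Spp1 -5.87 to 1.54. Without the largest clonotypes: Gm20400 -0.50 with TRBV26 and TRBV23 cells among the others; Ccl4 0.28 with 1 cell per clonotype; Spp1 -11.84 and Igfbp4 -11.95 without B cell or myeloid UMIs; Spp1 -12.09 without Foxp3; and against clonotypes of 1 to 3, Ccl5 0.067, Ccl4 0.063, Nkg7 0.18, Pdcd1 0.10 and Lag3 0.0042. Values under -7 belong to genes with no UMI in TRBV29 cells and are not folds.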

Other observations

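In the remaining TRBV29 cells, Ifitm1 and Ifitm2, which encode interferon-induced membrane proteins, were called higher but stood apart by mouse. Ifitm1 was at 6.89 CPM in the 25 cells of mouse 1 and 3132 in the 16 cells of mouse 2, against 126 and 167 in other cells, and Ifitm2 was at 48.2 and 940 against 72.3 and 86.6. Aqp3, a water and glycerol channel, was at 124 and 23.9 CPM against 8.49 and 11.1. These genes were picked after their values were seen, and each mouse is 1 small sum.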
